A study of Mus musculus with 36 samples.

Results

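*Leap2* and *Ghrl* encode 2 secreted peptides that act in opposite ways on the same receptor: ghrelin, the product of *Ghrl*, activates the growth hormone secretagogue receptor GHSR, and LEAP2 blocks it. They are 2 of the 52636 genes counted in these libraries. *Leap2* was selected on its measured fall between *Casp8* 1xDA/1xDA *Cflar*-/- *Mlkl*-/- and *Mlkl*-/- embryonic intestines, and *Ghrl* stands beside it as the ligand that LEAP2 opposes. The values of both genes in those 2 groups are therefore given as a description with no test.

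Ghrelin is made by enteroendocrine cells of the stomach and, at a lower level, of the intestine. It is cut from its precursor by a prohormone convertase and carries an acyl chain that the acyltransferase GOAT, encoded by *Mboat4*, adds before secretion. LEAP2 was named as a liver-expressed antimicrobial peptide and is now known as an antagonist and inverse agonist of GHSR; hepatocytes and enterocytes of the small intestine make it, and feeding and fasting move the 2 peptides in the blood in opposite directions.

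The study used mice that lack cFLIP, the product of *Cflar*, and carry a caspase-8 changed at a processing site. It followed their survival, cell death and gene expression. RNA sequencing read counts per gene were used from 36 libraries, 3 for each of 12 genotypes, in 3 sets: intestines at E18.5 built around the D387A allele of *Casp8* (also called 1xDA, which alters an autoprocessing site), intestines at E18.5 built around C362A (which alters the catalytic cysteine), and mouse embryonic fibroblasts (MEFs). The D387A libraries held 17943524 to 27721024 reads on genes, the C362A libraries 21757868 to 31052238, and the MEF libraries 20927014 to 32307629.

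The 6 D387A genotypes were *Mlkl*-/- (the controls), *Casp8* 1xDA/1xDA with *Mlkl* intact, *Casp8* 1xDA/1xDA *Cflar*-/- *Mlkl*-/-, the same with *Casp1*-/-, the same with *Casp1*-/- and *Ifnar1*-/-, and the same with *Casp1*-/- and *Fadd*-/-. In the sample titles the controls and *Casp8* 1xDA/1xDA *Cflar*-/- *Mlkl*-/- share a number, and each other genotype of this set has its own. What the number stands for is not given. Between genotypes with different numbers it cannot be told apart from the deletions. The 4 C362A genotypes were *Mlkl*-/- (the controls of that set), *Casp8* C362A/C362A *Mlkl*-/-, and that genotype with either *Casp1*-/- or *Cflar*-/- added. The MEFs were *Mlkl*-/- or *Casp8* 1xDA/1xDA *Cflar*-/- *Mlkl*-/-. Every group except the intestines with *Casp8* 1xDA/1xDA alone thus lacked *Mlkl*, which encodes the effector of necroptosis. *Casp1* encodes the caspase of inflammasomes, *Ifnar1* a subunit of the type I interferon receptor, and *Fadd* the adaptor that brings caspase-8 to death receptors. Genotypes are shortened here to the alleles they carry, as in 1xDA *Cflar Mlkl Casp1*.

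The targeted genes were read first, in CPM. *Casp1* stood at 0 to 0.212 CPM in the 9 D387A libraries labelled deficient and at 42.6 to 87.9 CPM in the other 9, and at 0 to 0.0817 CPM against 49.6 to 124.3 CPM in the C362A set. *Fadd* stood at 0.659 to 1.01 CPM in the 3 deficient libraries and at 36.3 to 50.5 CPM in the other 15 of the D387A set. *Ifnar1* stood at 33.2 to 37.9 CPM in the 3 deficient libraries and at 76.1 to 93.6 CPM in the other 15. These 3 genes thus separated the labelled groups without overlap. *Cflar* in the D387A set stood at 43.9 to 53.0 CPM in the 6 intact libraries. The 3 of 1xDA *Cflar Mlkl* lay below all of them, at 33.8 to 38.5 CPM, and the 9 that also lacked *Casp1* overlapped them, at 42.4 to 59.4 CPM, so the label of those 9 is not checked. *Cflar* did not overlap between deficient and intact libraries in the C362A set (39.7 to 44.4 against 53.3 to 72.5 CPM) or the MEFs (55.9 to 60.3 against 84.9 to 92.5 CPM). *Mlkl* reads, at 4.78 to 62.6 CPM in deficient and 10.9 to 13.9 CPM in intact intestines of the D387A set, do not check that label, and the point mutations of *Casp8* cannot be seen in counts. Within 1xDA *Cflar Mlkl Casp1*, replicate 3 stood at 46.1 CPM of *Mlkl* and replicates 1 and 2 at 6.27 and 7.46 CPM, which sets replicate 3 apart from its group.

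*Leap2* (ENSMUSG00000036216) lies on chromosome 11 at 53422181 to 53423170, minus strand, of GRCm38 in the GENCODE vM21 annotation. It has 1 transcript of 531 exon bases, and no annotated gene overlaps it. Its nearest neighbours are *Aff4*, 350 bases away, and *Uqcrq*, 4751 bases away. *Ghrl* (ENSMUSG00000064177) lies on chromosome 6 at 113716119 to 113719880, minus strand, with 7 transcripts. Its plus strand also carries *Gm26982*, which shares 3 bases with it, and *Gm44033*, which lies within it over 695 bases. The study's methods name a stranded library kit for the intestines and the sample labels name a different kit, and whether reads were counted by strand is not given, so reads of these 2 genes and of *Ghrl* could be mixed. Levels of *Gm44033* were low, with at most 18 reads in an intestine library, and *Gm26982* averaged 1.52 to 2.87 RPKM by intestine genotype. RPKM, which corrects reads for gene length and library size, was computed here with sizes scaled by edgeR's TMM method.

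In the control intestines of the D387A set *Leap2* was an abundant transcript, at 258, 269 and 321 RPKM in replicates 1, 2 and 3. Of the 27303 genes with a read in these controls, 174 (0.637%) stood at a higher mean level. The 3 intestines with *Casp8* 1xDA/1xDA alone held 296, 328 and 229 RPKM. Their range spanned that of the controls, and the groups overlapped.

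When *Cflar* and *Mlkl* were absent as well, *Leap2* reads nearly vanished: the 3 libraries of 1xDA *Cflar Mlkl* intestines held 0, 4 and 1 reads, or 0, 0.337 and 0.0753 RPKM. A count of 0 allows up to 3 reads, which is 0.244 RPKM in replicate 1, counting error alone considered; polymerase copies of a molecule are not independent, so floors and counting intervals here cover counting error only. All 3 libraries lay far below every control library, with 5 reads in all against 8841. The ratio of the summed reads, scaled for library size, was 2119 (95% counting interval 908 to 6528). The fitted log2 fold change was -10.94, the largest fall among the 18360 genes tested in the D387A set. That value rests on the few reads left: without replicate 2 of this group, which held 4 of the 5 reads, it was -12.47. The next genes by size of fall were *Pga5*, *Abcb11* and *Slc2a2*. The size of the fall of *Pga5*, a stomach gene, depends on 1 control library: the 3 controls held 3.17, 3.97 and 57.0 RPKM of it, and replicate 3 held the most RNA of stomach genes. The other 2 still stood far above the 1xDA *Cflar Mlkl* libraries, which held at most 0.0282 RPKM.

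**Figure D1:**
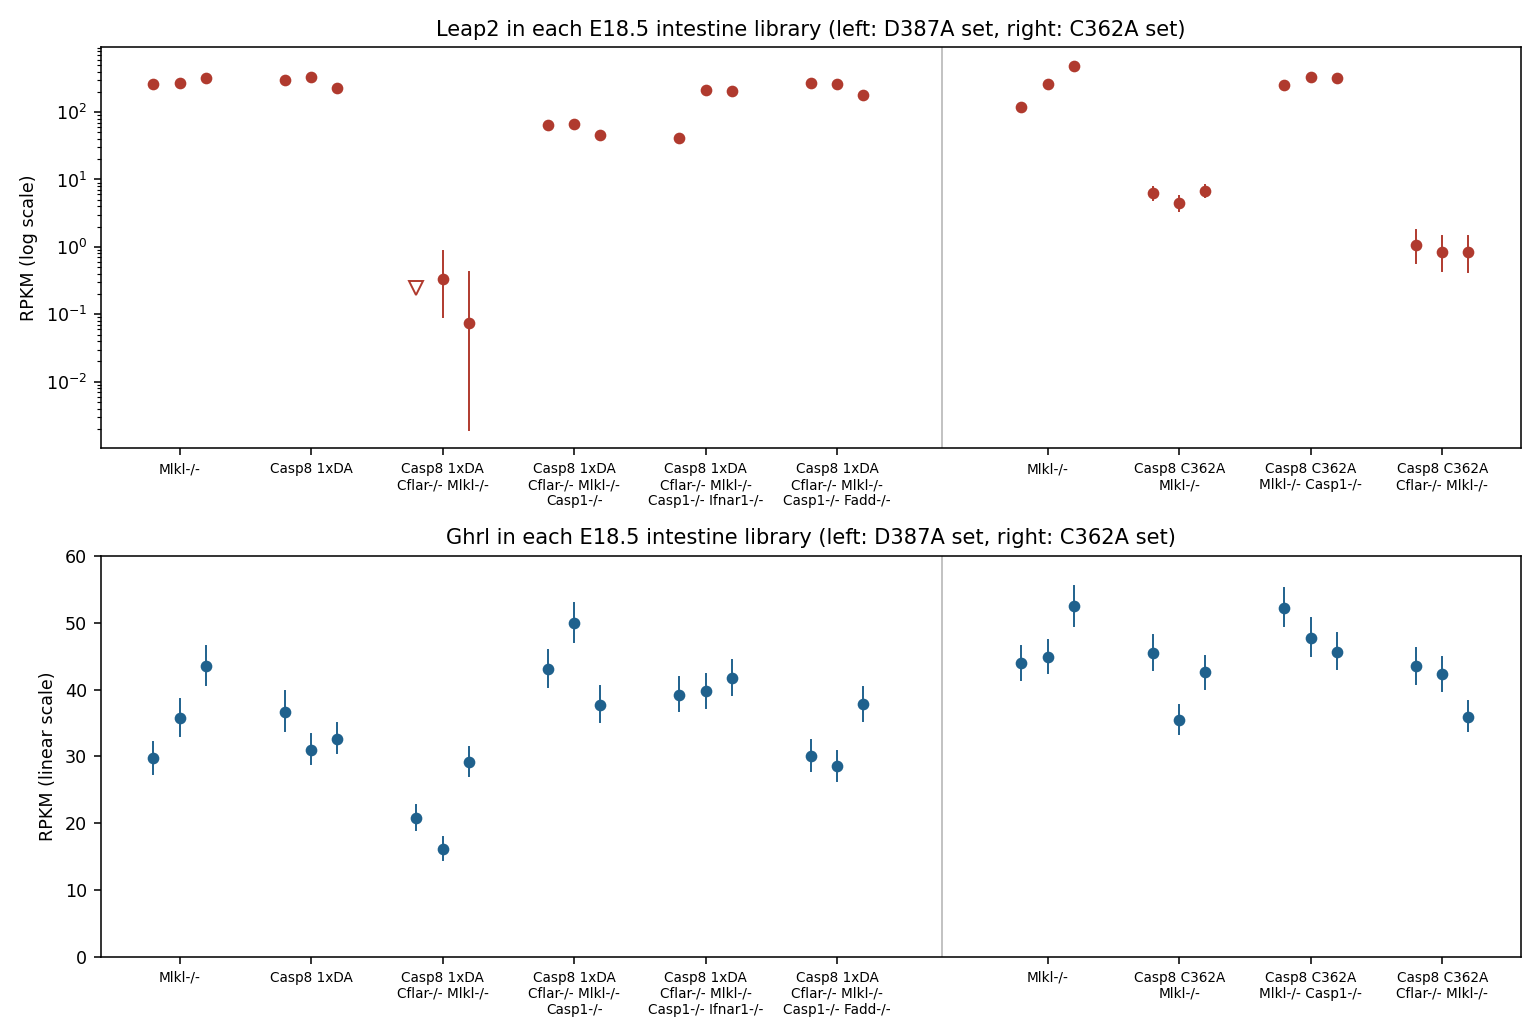
Level of *Leap2* (upper panel, log scale) and *Ghrl* (lower panel, linear scale) in RPKM in each of the 30 intestine libraries, with 95% counting intervals as vertical lines and an open triangle at the level of 3 reads for the library with 0 reads. *Leap2* spans 0 to 477 RPKM while *Ghrl* stays between 16.2 and 52.5 RPKM.

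With *Casp1* also deleted, *Leap2* was read at 63.4, 65.9 and 46.0 RPKM. All 3 libraries of 1xDA *Cflar Mlkl Casp1* intestines lay between the 1xDA *Cflar Mlkl* libraries and the controls and overlapped neither. Intestines that lacked *Ifnar1* as well held 40.8, 215 and 208 RPKM. Replicate 1 of that group lay below all 3 libraries with *Ifnar1* intact, and the other 2 lay far above them. Intestines that lacked *Fadd* in place of *Ifnar1* held 268, 261 and 181 RPKM. Those 3 libraries lay above every 1xDA *Cflar Mlkl Casp1* library, and 2 of them lay within the range of the controls.

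Ordered by mean, *Leap2* in the D387A set stood at 284.3 ± 50.8 RPKM (SD, n = 3) in 1xDA, 282.5 ± 33.4 RPKM in controls, 236.9 ± 48.2 RPKM in 1xDA *Cflar Mlkl Casp1 Fadd*, 154.7 ± 98.6 RPKM in 1xDA *Cflar Mlkl Casp1 Ifnar1*, 58.4 ± 10.9 RPKM in 1xDA *Cflar Mlkl Casp1* and 0.137 ± 0.177 RPKM in 1xDA *Cflar Mlkl*. Only the last step, between the genotypes with and without *Casp1*, joined neighbours that did not overlap and that differed by more than the larger SD. The 4 steps above it joined groups that overlapped, each with a gap smaller than the larger SD of its 2 groups.

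The genotypes that the choice of *Leap2* did not use allow tests. A gene was called when edgeR's quasi-likelihood test and Benjamini-Hochberg adjustment over all genes tested gave an adjusted p under 0.05 and the log2 fold change was over 1 or under -1. The comparisons with 1xDA intestines share those 3 libraries, and the *Ifnar1* and *Fadd* comparisons share the 3 libraries of 1xDA *Cflar Mlkl Casp1*. Without replicate 3 of that group, the library apart in *Mlkl*, the log2 fold change of *Leap2* was -2.14 between the group and 1xDA, 1.87 for loss of *Fadd* and 1.26 for loss of *Ifnar1*, and all 3 still passed both thresholds.

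Between 1xDA *Cflar Mlkl Casp1* and 1xDA intestines *Leap2* fell by 2.28 on the log2 scale (SE 0.398), with an adjusted p of 4.55e-04 in edgeR's quasi-likelihood test and Benjamini-Hochberg adjustment and all 3 libraries below all 3 of 1xDA. In this comparison 2.63% of 18360 genes were called higher and 3.01% lower (482 and 553 genes), and 42 genes fell by more than *Leap2*. Scaling by raw library totals in place of TMM gave 680 higher and 350 lower. Across the comparisons raw totals moved the median log2 fold change of all genes by between -0.27 and 0.28, and no tested fold change of *Leap2* that passed the thresholds changed sign or call with it.

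With *Fadd* deleted from 1xDA *Cflar Mlkl Casp1* intestines *Leap2* stood higher by 2.02 on the log2 scale (SE 0.395). The adjusted p was 0.00210 in edgeR's quasi-likelihood test and Benjamini-Hochberg adjustment, for a 4.05-fold higher mean level and with 3 of 3 libraries above all 3 with *Fadd* intact. In this comparison 2.56% of genes were called higher and 0.877% lower (470 and 161 genes), or 330 and 304 with raw library totals, and 92 genes rose by more than *Leap2*. The resulting level was not told apart from that of 1xDA intestines: the log2 fold change to them was -0.26 (SE 0.375, adjusted p 0.687 in the same edgeR test and Benjamini-Hochberg adjustment), with 1 of 3 libraries below all of 1xDA, in a comparison that called 4.44% of genes.

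Loss of *Ifnar1* from the same intestines gave a less even result. The log2 fold change of *Leap2* was 1.40 (SE 0.390), with an adjusted p of 0.0128 in edgeR's quasi-likelihood test and Benjamini-Hochberg adjustment, and 2 of 3 libraries stood above all 3 with *Ifnar1* intact while replicate 1 stood below them. The call rested on both of those libraries: without replicate 2 of the *Ifnar1*-deficient group the log2 fold change was 1.09 and without replicate 3 it was 1.13, and neither passed the adjusted threshold. It also did not pass with limma-voom (1.08) or in a fit of the 2 groups alone (1.41). In this comparison 3.28% of genes were called higher and 2.03% lower (603 and 372 genes), or 494 and 494 with raw library totals. The 975 calls became 629, 582 and 1740 without replicates 1, 2 and 3 of the *Ifnar1*-intact group in turn.

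Against 1xDA intestines the *Ifnar1*-deficient group did not pass: the log2 fold change of *Leap2* was -0.88 (SE 0.378, adjusted p 0.0655 in edgeR's quasi-likelihood test and Benjamini-Hochberg adjustment), although all 3 libraries lay below all 3 of 1xDA and 13.3% of genes were called. It passed at -1.19 without replicate 2 and at -1.15 without replicate 3 of the *Ifnar1*-deficient group, and at -1.20 with limma-voom. Whether the *Fadd* and *Ifnar1* deletions differ in their effect on *Leap2* was not tested.

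The comparisons that include the groups *Leap2* was chosen from are a description. With *Casp1* deleted from 1xDA *Cflar Mlkl* intestines the fitted log2 fold change of *Leap2* was 8.66, the largest rise of the 18360 genes, and 10.20 without replicate 2 of the *Casp1*-intact group. In that comparison 8.88% of genes were called higher and 4.51% lower. Against the controls the log2 fold change was -2.27 in 1xDA *Cflar Mlkl Casp1*, -0.87 in 1xDA *Cflar Mlkl Casp1 Ifnar1*, -0.25 in 1xDA *Cflar Mlkl Casp1 Fadd* and 0.01 in 1xDA intestines, the last of these -0.06 with raw library totals. All of these share the 3 control libraries. Between 1xDA and control intestines edgeR called 1 gene (0.00545%), DESeq2 3 and limma-voom 1, and 921 genes had an unadjusted p under 0.05 in edgeR.

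The C362A intestines, none of which entered the choice of *Leap2*, repeated the spread of levels. Their controls held 119, 262 and 477 RPKM, the widest range in RPKM of any genotype. *Casp8* C362A/C362A *Mlkl*-/- intestines held 6.20, 4.43 and 6.81 RPKM, from 257 reads in all. All 3 libraries lay below every control library, the lowest of which was at 119 RPKM.

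With *Casp1* deleted from that genotype *Leap2* was read at 251, 327 and 320.0 RPKM, inside the range of the controls. C362A *Cflar Mlkl* intestines held 1.07, 0.835 and 0.826 RPKM, from 38 reads in all. These 3 libraries were the lowest of the C362A set and lay below all 3 of C362A *Mlkl*. In order the means were 299.3 ± 42.3 RPKM (SD, n = 3) in C362A *Mlkl Casp1*, 286.0 ± 180.3 RPKM in controls, 5.81 ± 1.24 RPKM in C362A *Mlkl* and 0.909 ± 0.136 RPKM in C362A *Cflar Mlkl*. The first 2 overlapped and differed by less than their spread, and each later step joined groups that did not overlap.

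Between C362A *Mlkl* and control intestines *Leap2* fell by 5.62 on the log2 scale (SE 0.417). The adjusted p was 8.53e-08 in edgeR's quasi-likelihood test and Benjamini-Hochberg adjustment, all 3 libraries were lower, and 23 of 19408 genes fell by more. The scaled ratio of summed reads, controls over mutants, was 47.4 (95% counting interval 41.9 to 53.9). In this comparison 10.4% of genes were called higher and 7.55% lower (2021 and 1466 genes), or 2474 and 1186 with raw library totals.

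Deleting *Casp1* from C362A *Mlkl* intestines raised *Leap2* by 5.69 on the log2 scale (SE 0.418, adjusted p 3.66e-07 in edgeR's quasi-likelihood test and Benjamini-Hochberg adjustment, 3 of 3 libraries higher), and 4 genes rose by more. In this comparison 5.60% of genes were called higher and 5.72% lower (1086 and 1110 genes), or 667 and 1923 with raw library totals. Against the controls, which this comparison does not include, the log2 fold change in the *Casp1*-deleted intestines was 0.07 (SE 0.326, adjusted p 0.892 in the same edgeR test and Benjamini-Hochberg adjustment), and -0.06 with raw library totals. No library of that group lay above or below all 3 controls, and 10.5% of genes were called.

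Deleting *Cflar* from C362A *Mlkl* intestines lowered *Leap2* further, by a log2 fold change of -2.67 (SE 0.565, adjusted p 0.00482 in edgeR's quasi-likelihood test and Benjamini-Hochberg adjustment, 3 of 3 libraries lower). With limma-voom the value was -2.62 and did not pass. In this comparison 1.45% of genes were called higher and 4.62% lower (281 and 896 genes), or 485 and 704 with raw library totals, and 94 genes fell by more. Against the controls C362A *Cflar Mlkl* intestines stood at -8.29 (SE 0.513, adjusted p 1.49e-08 in the same edgeR test and Benjamini-Hochberg adjustment, 3 of 3 libraries lower), and 6 genes fell by more. The scaled read ratio was 304.3 (95% counting interval 221.6 to 430.3). That comparison called 13.4% of genes higher and 11.2% lower (2604 and 2177), or 3900 and 1558 with raw library totals.

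*Ghrl*, the ligand, was read at 29.7, 35.8 and 43.6 RPKM in the D387A controls and at 36.7, 31.0 and 32.7 RPKM in 1xDA intestines. The 1xDA *Cflar Mlkl* intestines held 20.8, 16.2 and 29.2 RPKM. All 3 of these lay below every control and every 1xDA library, the highest of them just under the lowest control. With raw library totals that library, replicate 3, stood at 33.6 RPKM against 28.1 RPKM in the lowest control and 29.5 to 33.4 RPKM in 1xDA, and in the deposited RPKM at 29.0 against 24.6, so the groups overlapped on either scale. *Ghrl* stood at 43.1, 50.0 and 37.7 RPKM in 1xDA *Cflar Mlkl Casp1*, at 39.3, 39.8 and 41.7 RPKM with *Ifnar1* also deleted, and at 30.1, 28.5 and 37.8 RPKM with *Fadd* also deleted. These 9 libraries overlapped the control range, and only 1 of them lay below the lowest control.

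In order of mean, *Ghrl* stood at 43.6 ± 6.13 RPKM (SD, n = 3) in 1xDA *Cflar Mlkl Casp1*, 40.2 ± 1.31 RPKM in 1xDA *Cflar Mlkl Casp1 Ifnar1*, 36.3 ± 6.94 RPKM in controls, 33.5 ± 2.93 RPKM in 1xDA, 32.1 ± 4.98 RPKM in 1xDA *Cflar Mlkl Casp1 Fadd* and 22.0 ± 6.61 RPKM in 1xDA *Cflar Mlkl*. Every pair of neighbours in this order overlapped, and only the last gap, of 10.1 RPKM, exceeded the larger SD of its 2 groups. As a description, the log2 fold change of *Ghrl* between 1xDA *Cflar Mlkl* and control intestines was -0.72, where 9.40% of genes were called higher and 12.8% lower (2547 and 1831 genes with raw library totals, against 1726 and 2352) and 3449 genes had a larger fall. With *Casp1* deleted from that genotype it was 0.98, with 3 of 3 libraries above all 3 with *Casp1* intact. Other settings gave 0.89 to 1.01 there, and the 1.01 of limma-voom and of the replicate block lies just past the fold threshold that 0.98 does not reach.

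None of the 10 tested comparisons of intestines called *Ghrl* with edgeR, and none did with DESeq2 or limma-voom. The largest tested log2 fold changes were -0.44 for loss of *Fadd* (SE 0.175, adjusted p 0.0914 in edgeR's quasi-likelihood test and Benjamini-Hochberg adjustment, 2 of 3 libraries below all 3 with *Fadd* intact) and 0.38 for 1xDA *Cflar Mlkl Casp1* against 1xDA (SE 0.175, adjusted p 0.110 in that test, 3 of 3 libraries above). With raw library totals these 2 values were -0.64 (adjusted p 0.0150 in the same edgeR test and Benjamini-Hochberg adjustment) and 0.58 (adjusted p 0.0212), past the adjusted threshold but not the fold threshold. Loss of *Fadd* also passed the adjusted threshold alone with no filter (adjusted p 0.0436) and without replicate 3 of 1xDA *Cflar Mlkl Casp1* (0.0431). Against 1xDA the value was 0.27 with *Ifnar1* also deleted, past the adjusted threshold in a fit of the 2 groups alone (0.0240), and -0.06 with *Fadd* also deleted, and for loss of *Ifnar1* it was -0.12.

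The C362A set showed *Ghrl* at 44.0, 44.9 and 52.5 RPKM in controls, 45.5, 35.5 and 42.6 RPKM in C362A *Mlkl*, 52.3, 47.8 and 45.7 RPKM in C362A *Mlkl Casp1* and 43.5, 42.3 and 36.0 RPKM in C362A *Cflar Mlkl*. The 4 groups ran from 35.5 to 52.5 RPKM, and each overlapped the next in the order of means. Those means were 48.6 ± 3.37 RPKM (SD, n = 3) in C362A *Mlkl Casp1*, 47.1 ± 4.66 RPKM in controls, 41.2 ± 5.16 RPKM in C362A *Mlkl* and 40.6 ± 4.04 RPKM in C362A *Cflar Mlkl*. The gap between the second and the third, 5.91 RPKM, was the only one above the larger SD of its 2 groups. Log2 fold changes of *Ghrl* here ran from -0.21 to 0.24, with SEs of 0.120. Scaling by raw library totals turned the sign of 4 of the 5 values: C362A *Cflar Mlkl* against controls (-0.21 to 0.06), C362A *Mlkl Casp1* against controls (0.05 to -0.08), loss of *Casp1* (0.24 to -0.03) and loss of *Cflar* (-0.02 to 0.11). For C362A *Mlkl* against controls it moved the value from -0.19 to -0.05. On TMM-scaled sizes 3 of 3 C362A *Cflar Mlkl* libraries lay below all controls, and 3 of 3 of C362A *Mlkl Casp1* lay above all of C362A *Mlkl*, with neither comparison called.

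Because *Leap2* spanned a far wider range than *Ghrl*, the level of the antagonist relative to the ligand differed between genotypes. Per library, *Leap2* over *Ghrl* in RPKM was 8.69, 7.51 and 7.36 in the D387A controls and between 6.99 and 10.6 in 1xDA intestines. In 1xDA *Cflar Mlkl* intestines the ratio was 0 (at most 0.0118 at 3 *Leap2* reads), 0.0208 and 0.00258. *Leap2* thus stood above *Ghrl* in every control and 1xDA library and below it in all 3 of 1xDA *Cflar Mlkl*. The ratio was 1.22 to 1.47 with *Casp1* deleted, 1.04, 5.40 and 4.99 with *Ifnar1* also deleted, and 8.93, 9.15 and 4.80 with *Fadd* also deleted. In the C362A set it was 2.70, 5.84 and 9.09 in controls, 4.79 or more in C362A *Mlkl Casp1* and 0.0198 to 0.0245 in C362A *Cflar Mlkl*. C362A *Mlkl* lay between, with *Leap2* below *Ghrl* in 3 of 3 libraries.

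MEFs carried almost no reads of either gene. *Leap2* had 0 reads in all 3 *Mlkl* libraries, and 0, 0 and 2 reads in 1xDA *Cflar Mlkl* MEFs. *Ghrl* had 2, 3 and 1 reads in *Mlkl* MEFs and 0, 5 and 3 in 1xDA *Cflar Mlkl* MEFs. Both genes were filtered out of the MEF fit, so no fold is given. That fit called 11 of 15465 genes (0.0711%), or 19 with the replicate number as a block, since same-numbered MEF libraries were paired. Without *Mlkl* replicate 1 or 2 it called 6 or 2, and without replicate 2 or 3 of the mutant group 3 or 5.

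The other genes of the ghrelin system were read from a list of 20, which includes *Leap2* and *Ghrl*. *Ghsr*, the receptor, had at most 6 reads summed over the 3 libraries of any intestine genotype, so no receptor transcript could be followed at this depth. *Mrap2*, which encodes an accessory protein of GHSR, averaged 0.0680 to 0.173 RPKM. *Mboat4*, the acyltransferase, averaged 0.191 to 0.415 RPKM and was called in no intestine comparison. *Pcsk1*, the convertase that cuts proghrelin, averaged 1.01 to 1.73 RPKM and was called in none. *Bche*, whose product butyrylcholinesterase removes the acyl chain of ghrelin, averaged 8.49 ± 0.537 RPKM (SD, n = 3) in D387A controls and 1.27 ± 0.0844 RPKM in 1xDA *Cflar Mlkl*, and 8.10 ± 0.832 RPKM in C362A controls against 1.32 ± 0.181 RPKM in C362A *Mlkl*. *Ghr*, the growth hormone receptor, averaged 32.2 ± 1.57 RPKM in D387A controls and 10.9 ± 0.551 RPKM in 1xDA *Cflar Mlkl*. *Bche* and *Ghr* thus also stood lower where *Leap2* was lowest, by a smaller factor.

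Of the list, 13 genes were tested in the D387A set and 14 in the C362A set. *Leap2* was the only one called for loss of *Ifnar1* and loss of *Fadd* (1 of 13 higher each), for 1xDA *Cflar Mlkl Casp1* against 1xDA (1 of 13 lower) and for loss of *Cflar* in the C362A set (1 of 14 lower). The medians of the tested genes in these 4 comparisons were 0.00, -0.07, -0.21 and -0.06, beside 0.00, -0.03, 0.02 and -0.02 over all genes tested, of which 3.28%, 2.56%, 3.01% and 4.62% were called in the same direction. In the *Ifnar1*-deficient group against 1xDA, *Ghr* and *Bche* were called lower (2 of 13), beside 6.49% of all genes. For *Fadd*-deficient intestines against 1xDA edgeR, DESeq2 and limma-voom called 0 of 13, and 4 had an unadjusted p under 0.05 in edgeR. C362A *Mlkl* and C362A *Cflar Mlkl* intestines each had 3 of 14 called lower against controls, *Leap2*, *Bche* and *Ghr*, with medians of -0.35 and -0.27 beside 0.02 and 0.03 over all genes, of which 7.55% and 11.2% were called lower. Deleting *Casp1* from C362A *Mlkl* raised *Leap2* and *Bche* (2 of 14 beside 5.60% of all genes, median 0.08 beside -0.02). In C362A *Mlkl Casp1* intestines against controls *Bche* (-1.38) and *Pcsk2* (-1.17) were called lower and *Gpr39* (1.25) higher, and *Leap2* was not called. The calls were 2 of 14 lower and 1 of 14 higher, beside 3.73% and 6.79% of all genes. Of these 3 genes only *Bche* was also called in C362A *Mlkl*.

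Genes with a pattern most like that of each member were sought over the 30 intestine libraries and 18196 genes, by the root mean square difference of log2 values centred on each gene's mean. The 5 nearest to *Leap2* were *Slc2a2* (1.08), *G6pc* (1.14), *Nr2e3* (1.17), *Mme* (1.19) and *Fabp1* (1.25), against 3.56 for *Leap2* about its own mean. With a smaller prior count of 0.5, 4 of the 5 stayed among the nearest 5, and *Acot3* took the place of *Fabp1*. *Ghrl* stood 3.37 from *Leap2*, and 3825 genes were nearer. *Slc2a2* averaged 24.3 RPKM in D387A controls, 0.0335 RPKM in 1xDA *Cflar Mlkl* and 7.49 RPKM in 1xDA *Cflar Mlkl Casp1*. It then stood at 3.12 RPKM with *Ifnar1* also deleted and 14.3 RPKM with *Fadd* also deleted. The 5 genes nearest to *Ghrl* were *Zkscan3*, *2610507I01Rik*, *Zfp606*, *Gli1* and *Srsf5* at 0.217 to 0.232, with *Ghrl* itself at 0.314 about its mean, so the measure had little variation of *Ghrl* to follow.

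**Figure D2:**
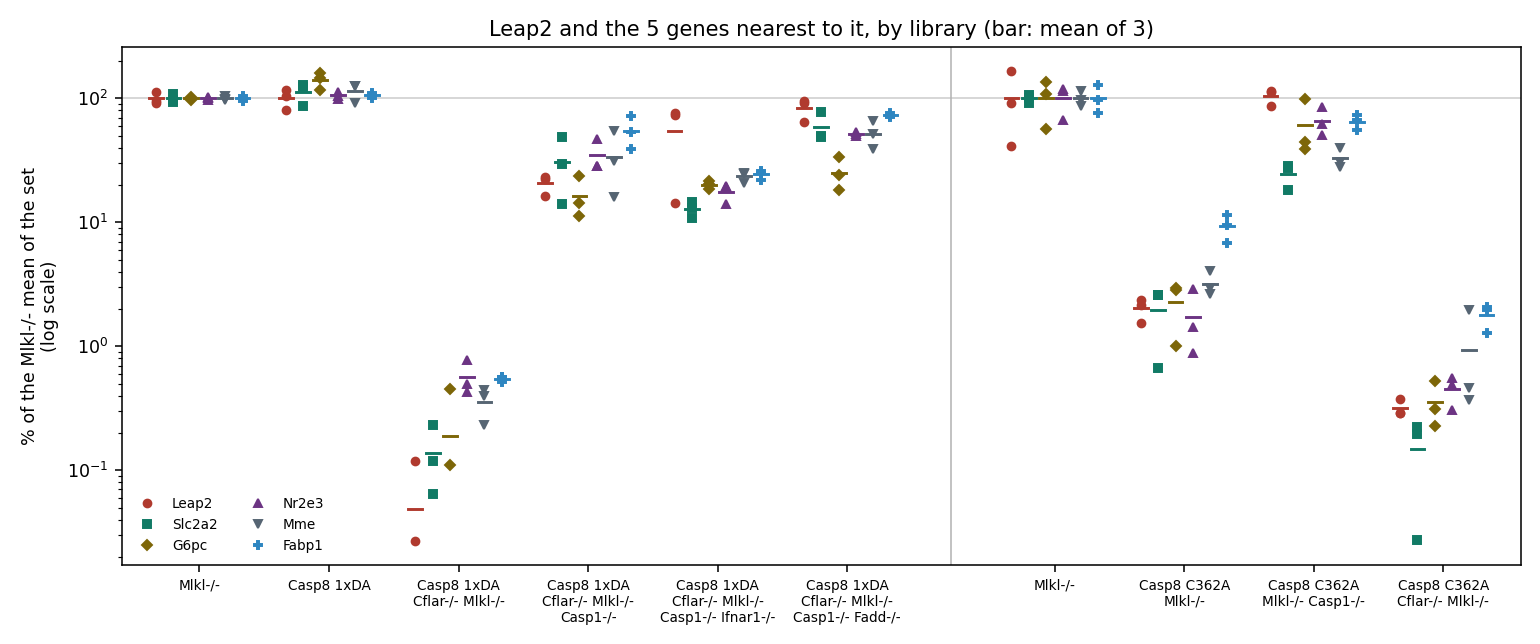
*Leap2* and the 5 genes nearest to it in pattern, as a percent of the *Mlkl*-/- mean of each set (log scale), with 1 point per library and a bar at the mean; libraries with 0 reads of a gene are not drawn but count in the mean. *Leap2* stands at 54.7% of its control mean in 1xDA *Cflar Mlkl Casp1 Ifnar1* and at 105% in C362A *Mlkl Casp1*, where *Slc2a2* stands at 12.8% and 24.7%.

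As a percent of control means, the means of these 5 genes stood below that of *Leap2* in 3 genotypes, while single libraries overlapped for some of the genes. In 1xDA *Cflar Mlkl Casp1 Ifnar1* intestines *Leap2* averaged 54.7% of its control mean, while *Slc2a2*, *G6pc*, *Nr2e3*, *Mme* and *Fabp1* averaged 12.8%, 20.1%, 17.7%, 23.5% and 24.4% of theirs. Replicate 1 of that group, the low library for *Leap2*, stood at 14.5%, within the span of those 5 means. With *Fadd* deleted in place of *Ifnar1*, *Leap2* averaged 83.8% and the 5 genes 25.2% to 73.0%. The *Leap2* libraries there ran from 64.2% to 95.0%, which overlaps *Slc2a2* (49.3% to 78.2%), *Mme* (38.9% to 65.4%) and *Fabp1* (71.0% to 75.7%). In C362A *Mlkl Casp1* intestines *Leap2* averaged 105% of its control mean and the 5 genes between 24.7% (*Slc2a2*) and 65.9% (*Nr2e3*). Its libraries there ran from 87.6% to 114%, and those of *G6pc* from 39.2% to 99.7%. In other genotypes some of the 5 genes stood above *Leap2*. Between 1xDA *Cflar Mlkl Casp1* and control intestines the log2 fold change of *Leap2* was -2.27. The values there were -1.70 for *Slc2a2*, -2.60 for *G6pc*, -1.52 for *Nr2e3*, -1.56 for *Mme* and -0.87 for *Fabp1*. In C362A *Mlkl* against controls they lay on both sides of *Leap2* (-5.62), from -5.85 (*Nr2e3*) to -3.43 (*Fabp1*). None of these differences was tested.

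Bulk counts cannot tell fewer cells of a type from less RNA per cell, so marker genes of the cells that make each peptide were set beside the members. Absorptive enterocytes, which make LEAP2, were followed by 20 genes, of which 19 were tested in both intestine sets. Their summed level was 46796, 47173 and 41506 RPKM in the D387A controls, with *Apoa4* or *Apoa1* the most abundant, and 3477, 1856 and 2511 RPKM in 1xDA *Cflar Mlkl*. That is 5.79% of the control mean, where *Leap2* was at 0.0486% of its own. *Leap2* was chosen by its fall there, so its place below the markers says nothing more. Of the 19 markers 18 were called lower, beside 12.8% of all genes (median -2.94 beside -0.01 over all genes).

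In the remaining D387A genotypes the enterocyte sum was 57.5% of the control mean with *Casp1* deleted, 64.8% with *Ifnar1* also deleted and 101% with *Fadd* also deleted, while *Leap2* was at 20.7%, 54.7% and 83.8%. Loss of *Fadd* called 4 of 19 markers higher, beside 2.56% of all genes (median 0.72 beside -0.03 over all genes). Loss of *Ifnar1* called 1 higher and 2 lower, beside 3.28% and 2.03% (median 0.16 beside 0.00). Within the *Ifnar1*-deficient group the sum was 23825, 30794 and 33199 RPKM, lowest in replicate 1, as *Leap2* was. 1xDA *Cflar Mlkl Casp1* against 1xDA called 8 of 19 lower, beside 3.01% of all genes (median -0.96 beside 0.02). *Leap2* fell by more than all 19 there.

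In the C362A set the enterocyte sum was 35815, 49543 and 57301 RPKM in controls, in the same order as their *Leap2* levels of 119, 262 and 477 RPKM. It averaged 39.8% of that in C362A *Mlkl*, 127% in C362A *Mlkl Casp1* and 10.5% in C362A *Cflar Mlkl*, while *Leap2* was at 2.03%, 105% and 0.318%. The 127% came with *Apoa1* at 18744 RPKM, against 9154 RPKM in controls, while *Fabp1* stood at 5195 against 7989 RPKM. The median of the 19 tested markers there was 0.11. Only *Anpep* and *Apoa1* were called higher, 2 of 19 beside 6.79% of all genes. Of the 19 markers 14 were called lower in C362A *Mlkl* and 17 in C362A *Cflar Mlkl* against controls. Of all genes 7.55% and 11.2% were called lower in the same comparisons. *Treh* fell by more than *Leap2* in C362A *Mlkl* (-6.35 against -5.62), and *Lct* by more on deletion of *Cflar* (-3.11 against -2.67). Deleting *Casp1* called 15 higher, beside 5.60% of all genes, and deleting *Cflar* 15 lower, beside 4.62%. The medians were 1.45 and -1.50, beside -0.02 over all genes in both. *Cyp3a11*, the member of the list left untested, had at most 4 reads in any genotype. The part of enterocyte number in the *Leap2* values was not tested.

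**Figure D3:**
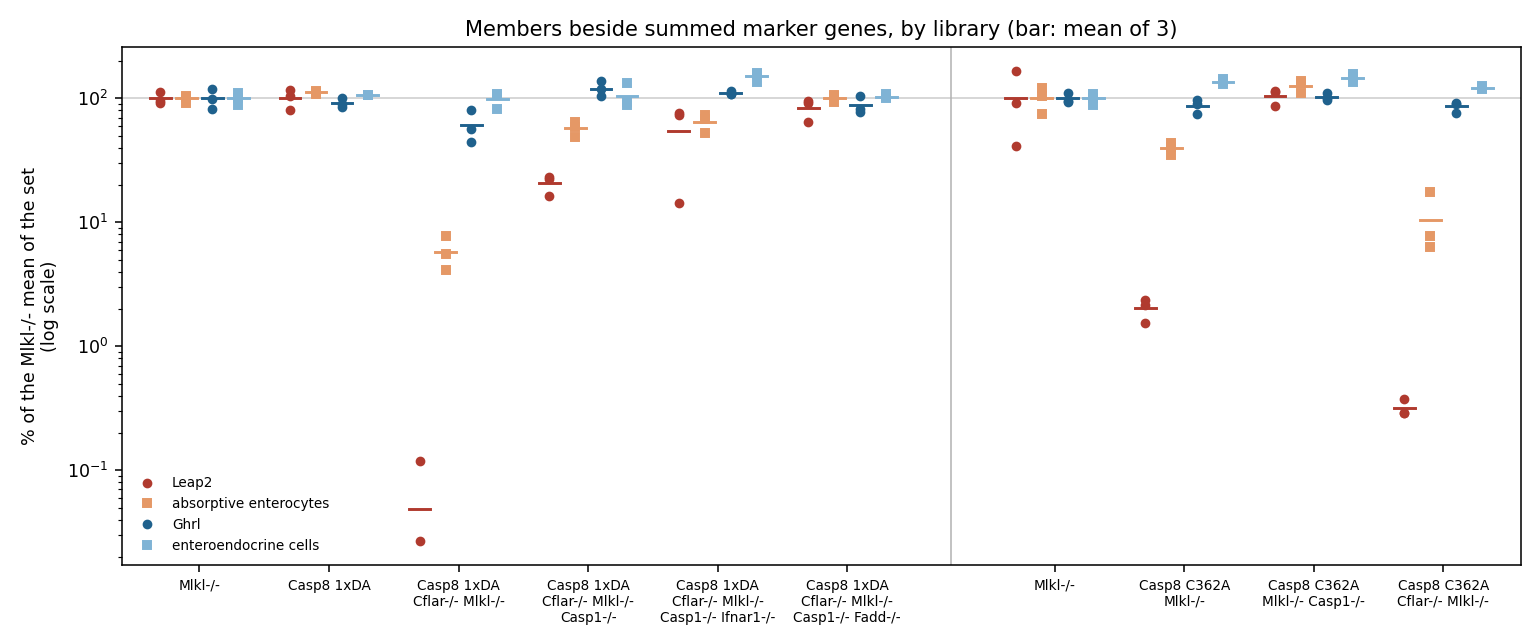
*Leap2*, *Ghrl* and the summed levels of 20 absorptive enterocyte and 26 enteroendocrine marker genes in each intestine library, as a percent of the *Mlkl*-/- mean of each set (log scale), with bars at the mean of 3 libraries; the library with 0 *Leap2* reads is not drawn but counts in the mean. In 1xDA *Cflar Mlkl* the means are 0.0486%, 60.7%, 5.79% and 98.9% in the order named *Leap2*, *Ghrl*, enterocytes, enteroendocrine cells.

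Enteroendocrine cells, which make ghrelin, were followed by 26 genes without *Ghrl*, all tested in both sets and all with reads in every intestine library. Their summed level, with *Sct* the most abundant gene, ran from 443.6 to 861.1 RPKM in D387A and from 460.6 to 815.4 RPKM in C362A intestines. By genotype it was 98.9% of the control mean in 1xDA *Cflar Mlkl*, where *Ghrl* was at 60.7%. Of the 26 genes *Gip*, *Neurog3* and *Pax4* were called lower there and *Vgf* and *Tac1* higher, near the 12.8% and 9.40% of all genes, with *Gip* at 63.0 ± 4.74 RPKM (SD, n = 3) in controls and 21.5 ± 6.58 RPKM in 1xDA *Cflar Mlkl*. The sum was 151% of the control mean in the *Ifnar1*-deficient group, where *Ghrl* was at 111%. Most of that came from *Sct*, at 165.0 ± 19.3 RPKM (SD, n = 3) in controls and 357.1 ± 64.3 RPKM there: 23 of the 26 genes were not called against controls, and the median was 0.07. In C362A *Mlkl* the sum was 137%, where *Ghrl* was at 87.4%, and in C362A *Mlkl Casp1* it was 147% with a median of -0.16, where *Ghrl* was at 103%. Without *Sct*, a sum chosen after the values were seen, these 3 percents were 123%, 124% and 114%. Loss of *Fadd* called 0 of 26 with edgeR, DESeq2 and limma-voom, with 2 at an unadjusted p under 0.05 in edgeR. Loss of *Ifnar1* called *Nts* higher and *Neurog3* lower (1 of 26 each, beside 3.28% and 2.03% of all genes). C362A *Mlkl* against controls called 3 higher and 1 lower, in a comparison that called 10.4% and 7.55% of all genes. Deleting *Casp1* from it called 3 lower (median -0.20 beside -0.02), where 5.72% of all genes were called lower. Whether the number of ghrelin cells moved with *Ghrl* was not tested.

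Liver and stomach, the other organs that make these peptides, were checked as possible sources of RNA in the samples. The 16 liver genes summed to 1236, 1452 and 1020 RPKM in D387A controls and 249.5, 294.3 and 236.2 RPKM in 1xDA *Cflar Mlkl*. They averaged 21.0% of the control mean there, 49.2% with *Casp1* deleted, 35.7% with *Ifnar1* also deleted and 94.8% with *Fadd* also deleted. In the C362A set they averaged 44.3% in C362A *Mlkl*, 91.0% in C362A *Mlkl Casp1* and 24.6% in C362A *Cflar Mlkl*. *Afp* or *Cps1* was the most abundant liver gene in every intestine library. In D387A controls *Afp*, *Cps1* and *Ttr* averaged 484.7, 457.1 and 156.6 RPKM and made up most of the sum. Bulk counts cannot tell whether reads of these genes came from liver or from the intestine itself. The sum may therefore not measure liver RNA alone. Loss of *Ifnar1* called 1 of 14 liver genes higher and 3 lower (median -1.23, beside 3.28% and 2.03% of all genes) while *Leap2* rose, and loss of *Fadd* called 2 higher, beside 2.56%. The part of liver RNA in the *Leap2* values was not tested.

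The 14 stomach genes were uneven within groups: they summed to 5.88, 6.05 and 356.1 RPKM in D387A controls, and to 4.72, 3.43 and 22.2 RPKM in 1xDA *Cflar Mlkl*. They reached 48.5, 74.8 and 46.9 RPKM in all 3 *Ifnar1*-deficient libraries, and in replicate 3 alone 80.8 RPKM of 1xDA, 62.6 RPKM of the *Fadd*-deficient group, 102.1 RPKM of C362A *Mlkl* and 61.7 RPKM of C362A *Mlkl Casp1*. *Ghrl* in the control library with 356.1 RPKM was 43.6 RPKM, the highest of its group. *Ghrl* was also the highest of its group in replicate 3 of 1xDA *Cflar Mlkl* (29.2 RPKM) and of the *Fadd*-deficient group (37.8 RPKM). Replicate 3 held the middle *Ghrl* value in 1xDA (32.7 RPKM) and C362A *Mlkl* (42.6 RPKM), and the lowest in C362A *Mlkl Casp1* (45.7 RPKM). *Atp4b*, which encodes a subunit of the gastric proton pump, had 0 reads in every intestine library. *Atp4a*, also on the list, did have reads, at 0.441 ± 0.152 RPKM (SD, n = 3) in C362A controls. In 1xDA *Cflar Mlkl* against D387A controls *Atp4a* was called lower with edgeR, DESeq2 and limma-voom. The part of stomach RNA in the *Ghrl* values was not tested.

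Other tissues were read from 6 further lists and a list of general epithelial genes. The 18 epithelial genes summed to 4272 to 6237 RPKM in D387A and 4816 to 7143 RPKM in C362A intestines, and to 104% of the control mean in 1xDA *Cflar Mlkl*, where *Leap2* was nearly absent. Pancreatic acinar genes summed to 63.0, 151 and 99.4 RPKM in the *Ifnar1*-deficient libraries and to 13.2, 18.2 and 62.6 RPKM in D387A controls. Loss of *Ifnar1* called 8 of 8 tested higher with edgeR and limma-voom and 5 with DESeq2, beside 3.28% of all genes with edgeR. In C362A *Cflar Mlkl* they were as uneven, at 44.9, 223.9 and 15.4 RPKM. Against controls edgeR and DESeq2 called 6 of 8 higher there and limma-voom 2, beside 13.4% of all genes with edgeR. Islet genes averaged 63.9% of the control mean in 1xDA *Cflar Mlkl* and 90.2% without *Slc2a2*, a sum chosen after the values were seen. Smooth muscle genes averaged 150% in 1xDA *Cflar Mlkl* and 190% in C362A *Cflar Mlkl*. Genes of enteric neurons and glia averaged 133% and 134% there, through *Vip*: without it, a sum chosen after the values were seen, they averaged 83.5% and 82.6%, and the medians of the list were -0.15 and -0.46. Leukocyte genes averaged 744% in C362A *Mlkl* and 151% in C362A *Mlkl Casp1*. In C362A *Mlkl* that came with *S100a9* at 356.2 RPKM, against 13.1 RPKM in controls, while *Csf1r* stood at 46.2 against 56.8 RPKM. The median of the 11 tested there was 2.19, with 9 called higher, beside 10.4% of all genes. Antimicrobial peptides and lectins were chosen because LEAP2 was named for such activity, and they went the other way from *Leap2* in the C362A set. In C362A *Mlkl* 12 of 14 tested were called higher, beside 10.4% of all genes (median 4.65 beside 0.02 over all genes). Deletion of *Casp1* called 9 lower, beside 5.72%. Loss of *Fadd* called 5 of 14 lower, beside 0.877% of all genes, while *Leap2* rose. Loss of *Ifnar1* called 8 higher, beside 3.28%, while *Leap2* rose as well.

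The genes next to the members on the chromosome were read as well. *Aff4* averaged 10.1 ± 0.871 RPKM (SD, n = 3) in D387A controls and 12.5 ± 0.146 RPKM in 1xDA *Cflar Mlkl*, and *Uqcrq* 235.8 ± 26.3 and 143.1 ± 5.17 RPKM, where *Leap2* nearly vanished. *Uqcrq* had log2 fold changes of the same sign as *Leap2* in several comparisons, at -0.64 between 1xDA *Cflar Mlkl Casp1* and 1xDA, 0.50 for loss of *Ifnar1*, 0.50 for loss of *Fadd* and 0.86 for loss of *Casp1* in the C362A set. These 4 passed the adjusted p threshold and not the fold threshold. In other comparisons it did not follow *Leap2*: it stood at 0.53 for loss of *Cflar* in the C362A set, at 0.08 for C362A *Cflar Mlkl* against controls and at 0.07 for loss of *Casp1* in the D387A set, where *Leap2* stood at -2.67, -8.29 and 8.66. None of *Aff4*, *Uqcrq*, the *Ghrl* neighbours *Tatdn2* and *Sec13*, and *Gm26982* passed both thresholds in any of the 16 intestine comparisons, where the log2 fold changes of *Leap2* ran from -10.94 to 8.66. *Gm26982*, which shares 3 bases with *Ghrl*, stood at -0.78 for loss of *Fadd*, where *Ghrl* stood at -0.44.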

How the data were processed

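RNA sequencing reads from 36 libraries of mouse embryonic intestines and MEFs were aligned by the authors with GSNAP to GRCm38. The deposited tables give counts of reads per gene, and the deposited RPKM values divide them by gene width and library total. The counting program and its use of strand are not given in the sources used here. All 36 count columns entered. RPKM printed here was recomputed from the counts, the deposited width and TMM-scaled library sizes. Reads on genes made up 75.6% to 88.6% of the totals behind the deposited RPKM.

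Each set was fitted as a whole with edgeR 4.0.16 in R 4.3.3 (filterByExpr with a minimum count of 10 and total of 15, TMM, quasi-likelihood tests, edgeR's default prior count, Benjamini-Hochberg adjustment). The tests set each difference against the spread between libraries, estimated over all genotypes of a set. The code was tested on simulated data. Alternatives were DESeq2 1.42.0, limma-voom (limma 3.58.1), RLE or raw library totals, no filter or a mean of at least 50 reads, a prior count of 2, fits of the 2 groups compared, the replicate number as a block, and leaving out each library.

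The members and the 12 gene lists were chosen with earlier results of these data known. Genes named are the members, the 3 genes with the next largest falls, the 5 nearest to each member (log2 CPM with a prior count of 2), chromosomal neighbours, and list genes that were called, most abundant or at 0; *Atp4b*, *Gip* and the receptor and enzyme genes of the ghrelin list were named after their values were seen. Same-numbered libraries of the MEF groups correlated in their deviations from group means (r 0.172 to 0.308) and count as paired.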

Additional observations from a re-analysis of the deposited data

How the results depend on the processing

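Of 180 values of the 20 tested fold changes of *Leap2* and *Ghrl* under other settings, 176 kept their side of the thresholds, as did 116 of 120 with a library left out. For loss of *Ifnar1*, *Leap2* stood at 1.40, at 1.08 with limma-voom and 1.41 in a fit of the 2 groups alone, neither passing, and at 1.09 to 1.86 with a library left out. Against 1xDA that group stood at -0.88, at -1.20 with limma-voom, which passed, and at -1.19 to -0.43. For loss of *Cflar* in the C362A set the value was -2.67, and -2.62 with limma-voom, which did not pass. Of the described values, *Leap2* in 1xDA *Cflar Mlkl* against controls moved from -10.94 to -9.87 with a prior count of 2 (-12.47 to -10.40 with a library left out), and with *Casp1* deleted from 8.66 to 7.60 (8.12 to 10.20), since few reads were left.

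Counts of genes called changed by over 1.5 times in these cases, and the cause was not tested. A mean of at least 50 reads gave 573 in place of 975 for loss of *Ifnar1*. It gave 662 in place of 1035, 1585 in place of 2441 and 518 in place of 816 for the *Casp1*, *Ifnar1* and *Fadd* genotypes against 1xDA. It gave 524 in place of 796 and 1454 in place of 2278 for the *Casp1* and *Ifnar1* genotypes against controls, and 1581 in place of 2459 for loss of *Casp1* in the D387A set. A fit of the 2 groups alone gave 411 for loss of *Ifnar1*, 322 in place of 631 for loss of *Fadd*, 456 for the *Casp1* genotype against controls and 7 in place of 1 for 1xDA against controls, where DESeq2 gave 3 and no filter 14. Leaving out a library gave 582 to 1740 for loss of *Ifnar1*. In MEFs the 11 genes became 38 with DESeq2, 45 with no filter, 19 with the replicate block and 2 to 14 with a library left out.

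In the intestines no pair of groups was paired by replicate number in the correlation of deviations (0 of 15 in the D387A and 0 of 6 in the C362A set), and the replicate block changed no call of *Leap2* or *Ghrl* there. It moved the numbers of genes called, for example from 975 to 977 for loss of *Ifnar1* and from 1035 to 1023 for the *Casp1* genotype against 1xDA.

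Sums of 3 marker lists without 1 gene each were chosen after the data were seen. Without *Sct* the enteroendocrine sum in the *Ifnar1*-deficient group moved from 151% to 123% of controls. Without *Vip* the sum of neuron and glia genes moved from 133% to 83.5% in 1xDA *Cflar Mlkl* and from 134% to 82.6% in C362A *Cflar Mlkl*, since *Vip* alone was called higher there. Without *Slc2a2*, which nearly vanished in 1xDA *Cflar Mlkl*, the islet sum there moved from 63.9% to 90.2%.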

Other observations

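With 3 libraries per genotype, the spread of *Leap2* was itself uneven: its highest library was 4.01 times its lowest in the C362A controls and 5.26 times in the *Ifnar1*-deficient group, but 1.24 times in the D387A controls. Counts give RNA and not circulating peptide. Without reads per strand or per cell, antisense reads at *Ghrl* and the number of producing cells remain unmeasured. The sets were fitted apart, and no difference between them was tested.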
